A study of Sus scrofa with 6 samples.

Results

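The plasminogen activator system is a small extracellular protease cascade, and 5 of its genes and related serpins were followed in porcine preadipocytes treated with TGF-β1. Urokinase (PLAU) and tissue plasminogen activator (PLAT) cut plasminogen to plasmin, a protease that degrades fibrin and many matrix proteins. PLAUR anchors urokinase at the cell surface. Serpins are suicide inhibitors that trap their target protease in a covalent complex, and SERPINE2 (protease nexin 1) traps urokinase, tissue plasminogen activator and thrombin. SERPINF1 (pigment epithelium-derived factor, PEDF) has the serpin fold but inhibits no known protease, and it is secreted in large amounts by adipose stromal cells and adipocytes. In connective tissue cells TGF-β is known to shift this system towards inhibition.

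The 5 genes were given by symbol and were all found among the 22164 genes of the deposited mRNA tables, each in a single row. PLAU, PLAUR, PLAT and SERPINF1 were listed under these symbols. SERPINE2 was listed as PN-1, which a RefSeq table of assembly Sscrofa11.1 gives as a synonym of SERPINE2, so its row was matched by name and not by position.

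Preadipocytes from subcutaneous adipose tissue of 5-day-old white pigs were kept for 48 h with recombinant human TGF-β1 at 10 ng/mL (3 samples) or, as the negative control called NC, with citric acid at 10 mM (3 samples). Preadipocytes are the fibroblast-like cells that become adipocytes. The paper calls the samples of a group biological replicates, and the source labels run from Junmu No. 1 to Junmu No. 6 over the 6 samples. Whether these numbers stand for animals or for a breed name that was counted up is not clear, so it is not known that each sample came from a different animal. P-values therefore measure only the spread between these samples, which may be technical. RNA was sequenced after removal of ribosomal RNA, and the level of a gene is its FPKM, its fragments scaled to the length of the gene and to the mapped fragments of the sample, so that levels can be compared between genes.

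The whole tables set the frame for the 5 genes. Depth relative to NC replicate 1, estimated from low FPKM values that are whole multiples of 1 fragment, was 0.740 to 0.842 in the TGF-β1 samples and 0.778 to 1 in the NC samples, and absolute depth was not known from the tables. The paper reports more raw reads in total for the TGF-β1 group than for the control, without a number for each sample. The highest estimates here were those of NC replicates 1 and 2, so the 2 sources differ in direction. The reason was not tested. The summed FPKM was 392976 to 404489 in the TGF-β1 samples and 418531 to 448468 in the NC samples, and the median log2 fold change of the 17708 genes tested was -0.10. Scaling the samples to the same total moved this median to 0.02, so the changes of the 5 genes are also given relative to the median of -0.10. The changes of all other genes are given without this adjustment. Of 10 preadipocyte markers 9 were found, and their summed FPKM was 970.4 to 1078 in the TGF-β1 samples and 703 to 973 in the NC samples. Most of the difference lay in COL1A1, at 494, 341 and 370 with TGF-β1 against 255, 250 and 271 in NC. Of the 9 markers, 6 had positive and 3 had negative log2 fold changes. The groups were separate upward in 1 (COL1A1, against 3.83% of all genes) and downward in 1 (CD34, against 14.3%). COL1A1 and CD34 were named after their values were seen. Of 7 macrophage markers 6 were found, none at 0 in any sample, with a sum of 21.4 to 98.3 in the TGF-β1 samples and 41.1 to 167 in the NC samples. Of 6 adipocyte markers 5 were found, with a sum of at most 2.22 in the TGF-β1 samples and 3.82 in the NC samples. All 6 epithelial markers were found, with a sum of 3.58 to 5.00 in the TGF-β1 samples and 0.0378 to 0.250 in the NC samples. Of these, 4 were tested, and all 4 had separate groups and were higher (3.83% of all genes). KRT5 and KRT8 were called by limma, which called 0.0508% of all genes higher. KRT5, KRT8 and EPCAM exceeded an FPKM of 0.1 only in TGF-β1 samples, so they entered the test only through that group. Their separate, higher groups were thus nearly fixed in advance, and nothing is drawn from these counts. CDH1 and KRT18, not tested, had overlapping groups. KRT5 and CDH1 were listed at 0 in all 3 NC samples. Of 6 endothelial markers 5 were found, with sums of 4.30 to 9.46 with TGF-β1 and 5.68 to 13.9 in NC. Most of each sum was PECAM1, at 4.22, 7.01 and 8.54 with TGF-β1 and 5.57, 10.3 and 12.9 in NC. The other 4 (KDR, TEK, VWF and EMCN) each had a mean FPKM under 1. Of 5 muscle markers 2 were found. DES had 583, 469 and 432 with TGF-β1 against 425, 356 and 269 in NC. Its groups were separate upward, as were those of 3.83% of all genes. ACTA1 had 15.7, 11.6 and 14.4 with TGF-β1 against 14.7, 11.0 and 7.81 in NC, with overlapping groups. The part of all these markers in the values below was not tested.

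In these preadipocytes the 5 genes were all expressed, over a wide range of levels, and none of them passed the test between TGF-β1 and NC. SERPINF1 was by far the highest, with a mean FPKM of 475 over the 6 samples, which placed it 130th of all genes. PLAU followed at 99.1, above 97.0% of the genes tested. PLAUR at 25.8 and SERPINE2 at 23.6 came next, and their samples overlapped in both groups. PLAT was the lowest at 13.2, still above 76.6% of the genes tested. Apart from PLAUR and SERPINE2, no neighbours in this order had overlapping samples in either group.

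**Figure D1:**
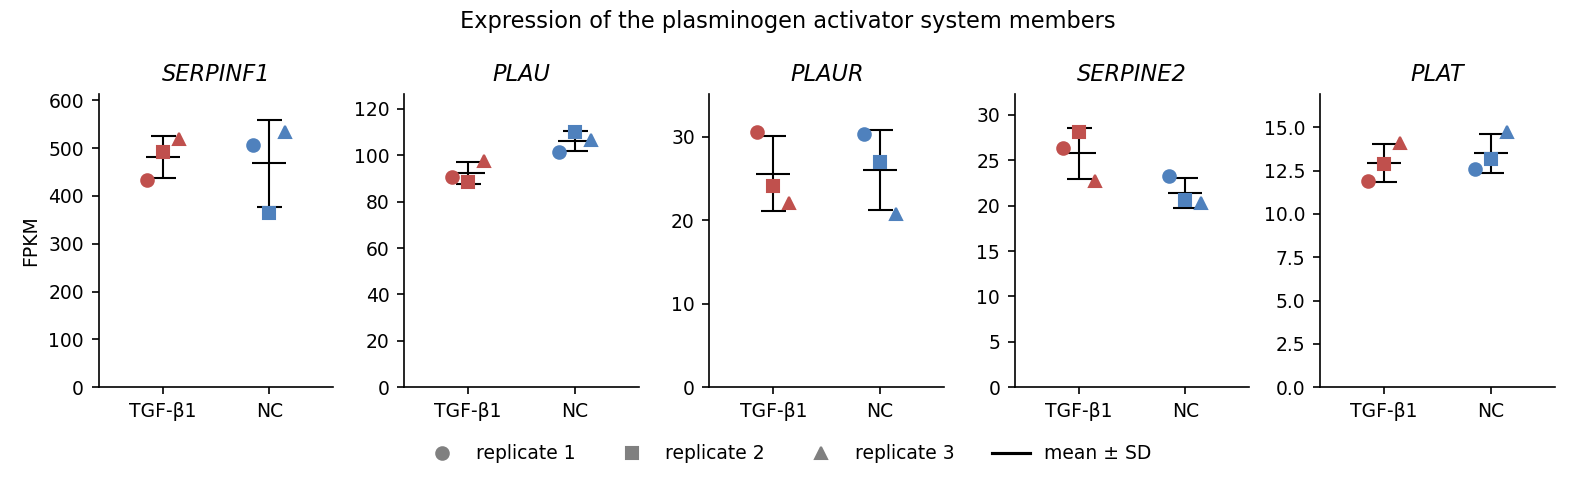
FPKM (vertical axis, from 0) of the 5 genes in each TGF-β1 and NC sample, in order of level, with points for the 3 replicates and bars for the mean ± SD. The PLAU samples lie at 88.5 to 97.7 with TGF-β1, all below the NC samples at 101 to 110, and the samples of the other 4 genes overlap between the groups.

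PLAU encodes urokinase, the activator that acts mainly on cell surfaces. Its FPKM was 90.6, 88.5 and 97.7 in the TGF-β1 samples, against 101, 110 and 107 in the NC samples. Every TGF-β1 sample was lower than every NC sample, and PLAU varied least of the 5 genes within a group (coefficient of variation 5.25% with TGF-β1 and 4.09% in NC). The mean was 92.2 ± 4.84 with TGF-β1 and 106 ± 4.33 in NC (SD, n = 3 each), a ratio of 0.870. On the scale of log2(FPKM + 0.1) the fold change was -0.20 (standard error 0.09, 95% interval -0.43 to 0.03), and limma gave an adjusted p = 0.538 over all genes. A two-sided exact permutation test of the means gave p = 0.1, the smallest that 3 samples against 3 allow. Of all genes tested, 14.3% had TGF-β1 samples that all lay below the NC samples. Relative to the median of all genes the change was -0.10, and with the samples scaled to the same total or by median ratios it was -0.07 and -0.10 with overlapping groups.

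PLAT encodes tissue plasminogen activator, the activator best known from fibrin clots. It had an FPKM of 11.9, 12.9 and 14.1 in the TGF-β1 samples and 12.6, 13.2 and 14.7 in the NC samples. The groups covered nearly the same range, and in each of them replicate 1 was lowest and replicate 3 highest. The log2 fold change was -0.06 (standard error 0.12, 95% interval -0.35 to 0.23, adjusted p = 0.867 from limma), so changes of up to 1.17-fold upward or to 0.785 of the NC level lay within the interval. Its sign turned to 0.07 and 0.04 under the same-total and median-ratio scalings, and to 0.0041 without NC replicate 3.

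PLAU held most of the activator transcripts per length. It made up 88.4%, 87.3% and 87.4% of the summed FPKM of PLAU and PLAT in the TGF-β1 samples and 89.0%, 89.3% and 87.9% in the NC samples. The share was thus close to the same in all 6 cultures, and the groups overlapped. A ratio within a sample does not depend on how samples are scaled to each other, and the ratio of PLAT to PLAU was 0.131, 0.146 and 0.144 with TGF-β1 against 0.124, 0.120 and 0.138 in NC.

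PLAUR encodes the glycolipid-anchored urokinase receptor. Its FPKM was 30.6, 24.1 and 22.1 in the TGF-β1 samples and 30.3, 27.0 and 20.8 in the NC samples. In both groups replicate 1 was highest and replicate 3 lowest, which is the reverse of PLAT, and the spread within a group (SD 4.46 with TGF-β1 and 4.84 in NC, n = 3 each) far exceeded the difference of the means, 25.6 and 26.0. The log2 fold change was -0.02 (standard error 0.20, 95% interval -0.52 to 0.48, adjusted p = 0.976 from limma). It was positive under 2 scalings, at 0.11 with the same total and 0.08 with median ratios, and it turned to 0.10 or 0.01 when NC replicate 1 or 2 was left out and to 0.01 or 0.08 when TGF-β1 replicate 2 or 3 was. Per length there were 0.338, 0.272 and 0.226 receptor transcripts for each PLAU transcript in the TGF-β1 samples and 0.299, 0.245 and 0.195 in the NC samples.

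Within each group the summed macrophage markers stood in the same order of samples as PLAT and in the reverse order of PLAUR. Their summed FPKM was 21.4, 64.2 and 98.3 in TGF-β1 replicates 1, 2 and 3 and 41.1, 122 and 167 in NC replicates 1, 2 and 3. CSF1R departed from this order, with 1.02, 5.63 and 4.95 in TGF-β1 replicates 1, 2 and 3. All 6 markers found were lowest in replicate 1 of both groups. This trait was not particular to them. Of the 9 preadipocyte markers found, 6 were lowest in replicate 1 among the TGF-β1 samples and 8 among the NC samples. Of the 5 endothelial markers found, 5 and 4 were lowest or tied at 0 there. The part of any of these markers in the values of PLAUR and PLAT was not tested. In cultured cells measured as bulk RNA, fewer cells of a type and less RNA per cell cannot be told apart.

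**Figure D2:**
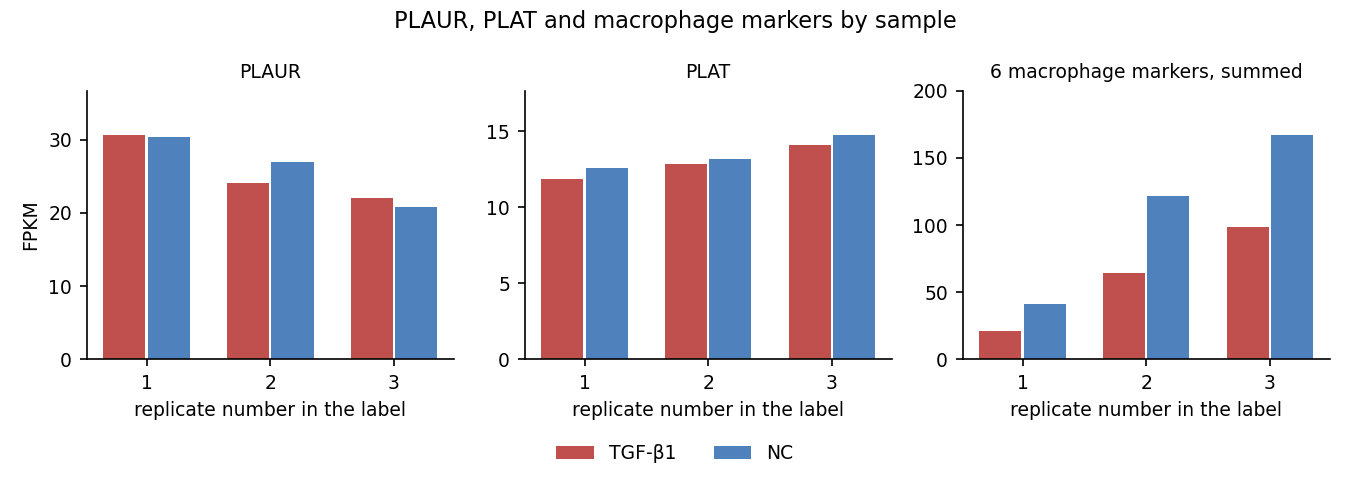
FPKM (vertical axes, from 0) of PLAUR, PLAT and the sum of 6 macrophage markers, by the replicate number in the sample label, with TGF-β1 and NC side by side. PLAUR is highest in replicate 1 of both groups (30.6 and 30.3), where PLAT (11.9 and 12.6) and the macrophage sum (21.4 and 41.1) are lowest.

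SERPINE2 encodes the membrane- and matrix-bound inhibitor of both activators. It had an FPKM of 26.4, 28.1 and 22.7 in the TGF-β1 samples, against 23.2, 20.6 and 20.2 in the NC samples. TGF-β1 replicate 3 lay just below NC replicate 1, and the other TGF-β1 samples lay above all NC samples. The mean was 25.7 ± 2.76 with TGF-β1 and 21.4 ± 1.64 in NC (SD, n = 3 each), a ratio of 1.20. The log2 fold change was 0.26 (standard error 0.12, 95% interval -0.04 to 0.57), with an adjusted p = 0.542 from limma and an exact permutation p = 0.2 (two-sided). Relative to the median of all genes it was 0.36. After scaling to the same total it was 0.39, with values of 27.3, 29.4 and 24.2 in the TGF-β1 samples and 21.7, 19.4 and 20.2 in the NC samples, so that the groups no longer overlapped. The unadjusted p was then 0.014 and the adjusted p = 0.471 from limma. As deposited the unadjusted limma p was 0.080. With median-ratio scaling it was 0.022, with an adjusted p = 0.538.

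The sample order of SERPINE2 was nearly the reverse of that of PLAU. TGF-β1 replicate 2 had the lowest PLAU and the highest SERPINE2 of all samples, and among the TGF-β1 samples replicate 3 had the highest PLAU and the lowest SERPINE2. Per length, SERPINE2 reached 0.258, 0.278 and 0.203 of the summed activators PLAU and PLAT in the TGF-β1 samples, against 0.204, 0.167 and 0.167 in the NC samples. The mean ratio was 0.246 ± 0.0385 with TGF-β1 and 0.179 ± 0.0213 in NC (SD, n = 3 each). TGF-β1 replicate 3 and NC replicate 1 were nearly equal, and they alone made the groups overlap.

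**Figure D3:**
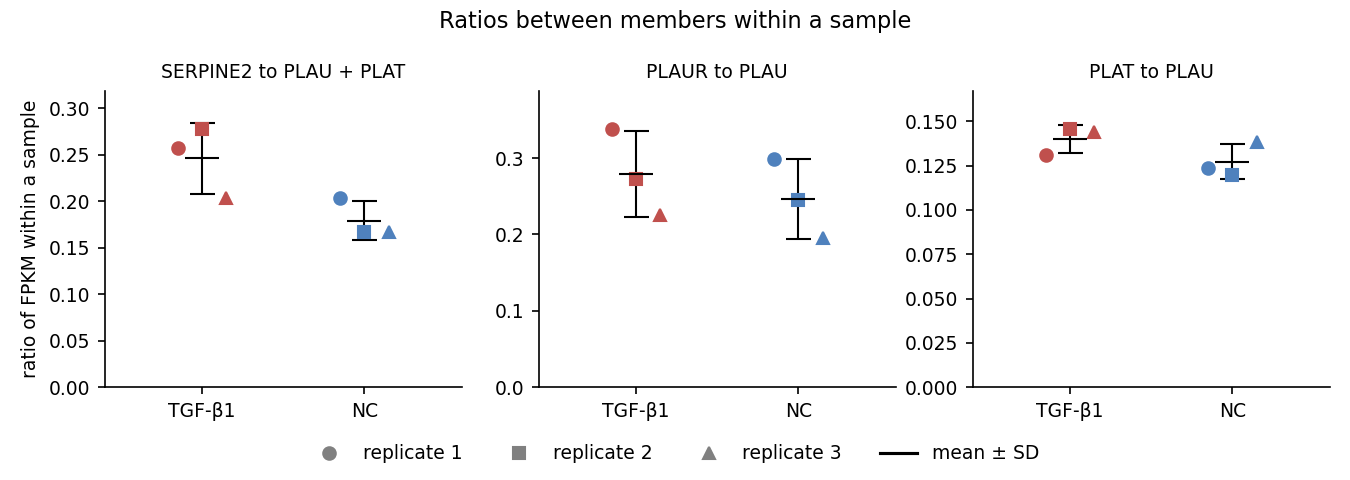
Ratios of FPKM within a sample (vertical axes, from 0) for TGF-β1 and NC, with points for the 3 replicates and bars for the mean ± SD. SERPINE2 relative to PLAU and PLAT averages 0.246 with TGF-β1 and 0.179 in NC, while the ratios of PLAUR and PLAT to PLAU cover similar ranges in both groups.

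SERPINF1 encodes PEDF, a secreted antiangiogenic factor. Its FPKM was 434, 493 and 519 in the TGF-β1 samples and 506, 365 and 534 in the NC samples. NC replicate 2 was the lowest of all samples, and the groups overlapped. The mean was 482 ± 43.4 with TGF-β1 and 469 ± 90.5 in NC (SD, n = 3 each), and the log2 fold change was 0.06 (standard error 0.18, 95% interval -0.39 to 0.51, adjusted p = 0.922 from limma). The sign rested on NC replicate 2, without which the change was -0.11. Under the same-total and median-ratio scalings it was 0.18 and 0.15.

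Among the 5 genes, limma called 0 at the adjusted threshold of 0.1 and 0 had an unadjusted p under 0.05. Of all genes tested, 0.096% passed, 0.0508% higher and 0.0452% lower, so a count of 0 among 5 is near this background. At the unadjusted threshold 2.72% of all genes were higher and 7.26% lower. As deposited, PLAU was the 1 gene of the 5 whose groups did not overlap. It was lower, and 14.3% of all genes were separate and lower and 3.83% separate and higher. Under both other scalings the groups of PLAU overlapped and those of SERPINE2 were separate and higher. The shares of all genes under these scalings were not counted. SERPINE2 and SERPINF1 had positive log2 fold changes. All apart from PLAU lay above the median of all genes, by 0.04 for PLAT, 0.08 for PLAUR, 0.15 for SERPINF1 and 0.36 for SERPINE2.

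**Figure D4:**
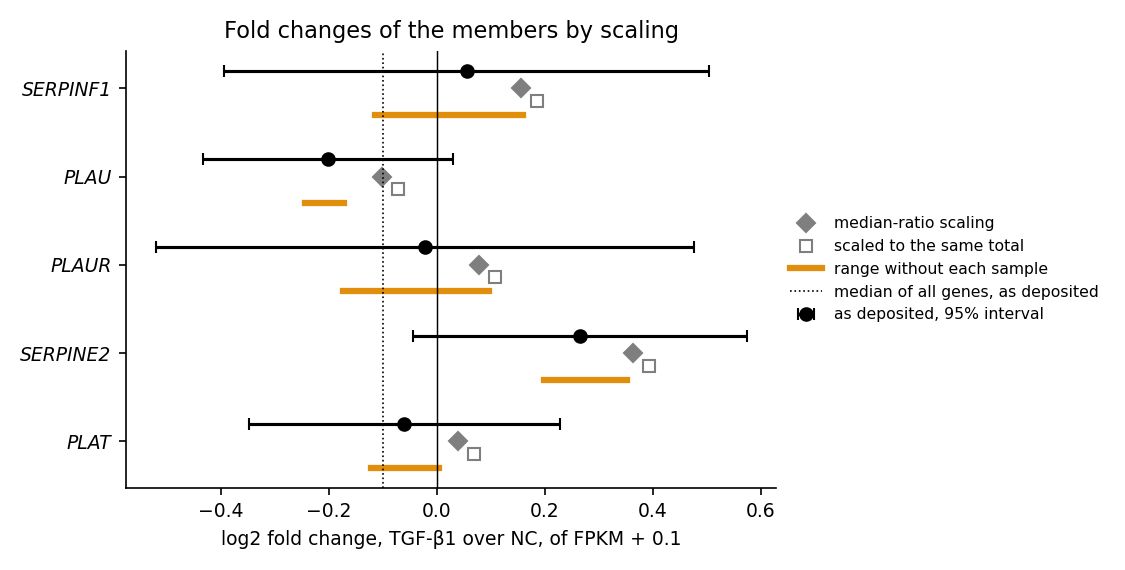
Log2 fold change of FPKM + 0.1 (horizontal axis, TGF-β1 over NC) of the 5 genes, with the 95% limma interval, the values under 2 other scalings and the range without each sample in turn. SERPINE2 lies above 0 and PLAU below 0 in every one of these fits, while PLAUR, PLAT and SERPINF1 cross 0, and all 5 intervals include 0.

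The serpin family was described by 16 genes found by name, SERPINE2 included, of which 6 had a mean FPKM of at least 1 and 10 had less. SERPINH1, a collagen chaperone with the serpin fold, had 710 ± 52.8 with TGF-β1 and 728 ± 69.7 in NC (SD, n = 3 each). SERPING1, the inhibitor of complement C1 esterase and of kallikrein, had 22.5, 31.8 and 41.7 with TGF-β1 and 28.3, 43.3 and 50.4 in NC. The intracellular SERPINB1 and SERPINB8 had log2 fold changes of -0.07 and 0.04. Of the 9 serpins tested 0 passed limma's test, 0 had an unadjusted p under 0.05 and 0 had separate groups, with a median log2 fold change of -0.01. Counts of 0 among 9 are near the shares of all genes, of which 0.096% passed and 3.83% and 14.3% had separate groups upward and downward.

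The wider pathway was described by 8 lists with 89 symbols, of which 81 were found, 8 were not analysed here and 65 were tested. Of these 65, limma called 0 at the adjusted threshold of 0.1, and at an unadjusted p under 0.05 there were 1 higher (TIMP1) and 2 lower (TIMP3 and VTN). The groups were separate in 5 genes that were higher with TGF-β1 (ENO1, TIMP1, WFDC1, FN1 and LTBP1, 7.69%, against 3.83% of all genes) and in 5 that were lower (PLAU, PLGRKT, VTN, TIMP3 and SLPI, 7.69%, against 14.3%). PLGRKT and SLPI were named after their values were seen. The median log2 fold change was -0.06, against -0.10 for all genes.

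Of the 8 genes for plasminogen, its surface receptors and its processing, 5 were found and tested. The groups were separate upward in 1 (ENO1, against 3.83% of all genes) and downward in 1 (against 14.3%), namely PLGRKT (a membrane receptor of plasminogen, at 23.4, 24.3 and 24.8 in the TGF-β1 samples and 26.6, 26.2 and 26.6 in the NC samples). ENO1, a glycolytic enzyme that also binds plasminogen, had 780, 732 and 702 in the TGF-β1 samples and 668, 675 and 663 in the NC samples (log2 fold change 0.14, adjusted p = 0.627 from limma). ANXA2 and S100A10 form the annexin A2 complex, which binds plasminogen and tissue plasminogen activator. ANXA2 had 905, 745 and 649.6 with TGF-β1 and 966, 831 and 648 in NC, again with replicate 1 highest and replicate 3 lowest in both groups. S100A10 had 44.5 ± 4.78 with TGF-β1 and 54.8 ± 7.54 in NC (SD, n = 3 each), with overlapping groups.

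In the list of inhibitors, SERPING1, given above, had a mean FPKM of 36.3. SERPINF2, the circulating inhibitor of plasmin, and A2M, a broad protease trap, had a mean FPKM of 0.0310 and 0.0754 over the 6 samples and were not tested. SERPINB2, another inhibitor of urokinase, had 0.282, 0.633 and 0.416 in the TGF-β1 samples and 0.104, 0.305 and 0.393 in the NC samples (log2 fold change 0.61, SE 0.41), with overlapping groups. In all, 6 of 8 genes in this list were found and 4 were tested, SERPINE2 among them, with 2 positive and 2 negative log2 fold changes and a median of 0.13.

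Of the 18 genes for clearance and surface partners of the urokinase receptor, 17 were found and 15 were tested, 9 with positive and 6 with negative log2 fold changes. VTN, the matrix protein vitronectin that binds the receptor, was hardly expressed, at 0.139, 0.113 and 0.178 with TGF-β1 against 0.303, 0.300 and 0.275 in NC (log2 fold change -0.70, SE 0.13, limma adjusted p = 0.322). ITGA5, a chain of the fibronectin receptor, had 48.5, 38.7 and 31.7 with TGF-β1 against 32.3, 27.4 and 25.3 in NC (log2 fold change 0.47, standard error 0.19). Its lowest TGF-β1 sample lay just below the highest NC sample. CAV1, a membrane scaffold protein, varied widely within each group, at 148, 105 and 61.0 with TGF-β1 and 174, 119 and 56.9 in NC. ITGB1, the shared integrin chain, and LRPAP1, the chaperone of the receptor LRP1, had 478 ± 4.74 and 68.8 ± 2.70 with TGF-β1 against 444 ± 46.0 and 75.0 ± 8.11 in NC (SD, n = 3 each).

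In the coagulation list 2 of 10 genes tested had positive log2 fold changes and 8 negative ones, with a median of -0.27, against -0.10 for all genes. The macrophage markers found were negative in 6 of 6, with a median of -0.88. Negative changes were not particular to them. The adipocyte markers tested were negative in 4 of 4 (median -0.68) and the endothelial ones in 2 of 3 (median -0.29). The preadipocyte and muscle markers tested were positive in 6 of 9 and 2 of 2. Of the 16 genes of the coagulation list found, 10 were lowest in replicate 1 among the TGF-β1 samples. Among the NC samples 12 were lowest or tied at 0 in replicate 1. All 6 macrophage markers were lowest in replicate 1 of both groups, but the trait was not particular to them or to this list. Of the 12 genes in the list of other extracellular inhibitors, 9 were lowest or tied at 0 in replicate 1 of each group. The median log2 fold change of that list was -0.01. Of the 9 preadipocyte markers found, 6 were lowest in replicate 1 with TGF-β1 and 8 in NC. The share over all genes was not counted, and the part of any markers in the list's values was not tested. F2RL2, a thrombin receptor, had 3.34, 4.02 and 5.34 with TGF-β1 against 5.13, 6.85 and 6.25 in NC (log2 fold change -0.53, standard error 0.21), and it did not pass. The anticoagulant cofactor PROS1 and its relative GAS6 had 93.0 ± 17.6 and 42.2 ± 8.11 with TGF-β1 against 105 ± 7.14 and 50.5 ± 9.98 in NC (SD, n = 3 each). The groups of both overlapped. TFPI2, a Kunitz-type inhibitor of plasmin, had 24.9 ± 4.23 and 24.0 ± 5.80, and PROCR, the receptor of protein C, 1.63 ± 0.270 and 2.00 ± 0.109, each with TGF-β1 and in NC (SD, n = 3 each).

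Among the other extracellular inhibitors, TIMP3 and TIMP1, which inhibit matrix metalloproteinases, had the lowest p-values and opposite signs, and neither passed. TIMP3, which binds to the matrix, had 30.3, 28.3 and 29.5 with TGF-β1 against 52.0, 64.3 and 57.6 in NC, so that all TGF-β1 samples were far below all NC samples (log2 fold change -0.97, SE 0.11, limma adjusted p = 0.135). TIMP1, the soluble inhibitor, had 41.8, 43.3 and 43.3 with TGF-β1 against 37.3, 34.8 and 32.3 in NC (log2 fold change 0.30, SE 0.10, limma adjusted p = 0.452). WFDC1 also had separate groups, at 88.4 ± 4.12 with TGF-β1 and 78.1 ± 3.07 in NC, while TIMP2 (182 ± 26.3 and 180.4 ± 15.7) and the cathepsin inhibitor CST3 (493 ± 41.3 and 498 ± 61.0) overlapped (SD, n = 3 each).

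Targets of the cascade in the matrix had 0 of 14 genes passing (0.096% of all genes) and 2 with separate groups, both higher (3.83% of all genes were separate and higher, 14.3% separate and lower). FN1, the matrix protein fibronectin, had 616, 713 and 783 with TGF-β1 against 483, 579 and 605 in NC (log2 fold change 0.34, SE 0.15, limma adjusted p = 0.517). LTBP1, which stores latent TGF-β in the matrix and is released by plasmin, had 87.5, 85.3 and 94.7 with TGF-β1 against 59.5, 77.2 and 81.8 in NC (log2 fold change 0.30). The gelatinase MMP2 and its membrane-bound activator MMP14 had log2 fold changes of 0.01 and -0.10. Of the 5 genes for proposed PEDF receptors and partners, 1 had a positive and 4 had negative log2 fold changes, 0 passed and all groups overlapped. PNPLA2, the lipase of triglyceride breakdown, had a log2 fold change of 0.07 (named after its value was seen). RPSA, the laminin receptor, had a log2 fold change of -0.05, PLXDC1 -0.18, PLXDC2 -0.06 and the Wnt coreceptor LRP6 -0.26.

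**Figure D5:**
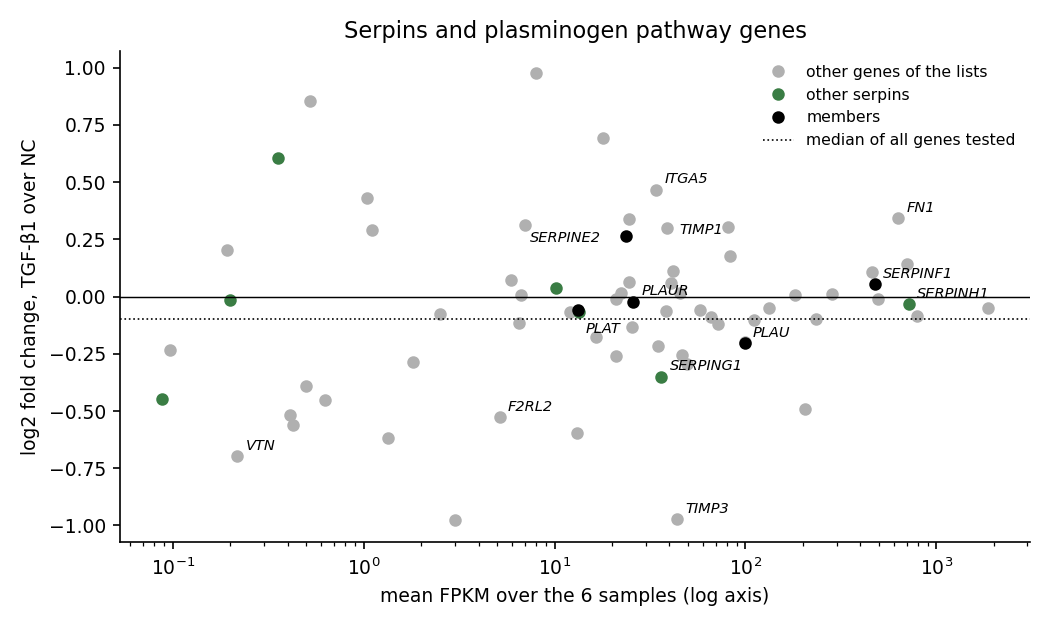
Log2 fold change (vertical axis, TGF-β1 over NC) against mean FPKM over the 6 samples (horizontal log axis) for the tested genes of the 8 lists and the serpin family, with the 5 genes in black and other serpins in green. SERPINF1 and SERPINH1 lie at the high end near 0, and TIMP3, at -0.97, lies far below the dotted median of all genes.

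Genes with the most similar pattern over the 6 samples were sought among 4041 other named genes that averaged an FPKM of 10 or more, by Pearson's r of the log2 values. The r values, of FPKM as deposited, describe 6 samples that differ in group, summed FPKM, the level of macrophage markers and depth. These values were not tested. For PLAU the closest genes were PALM, UBR7 and NNT (r = 0.994, 0.993 and 0.990), and 52 genes had an r above 0.95. For PLAUR they were ILK, MAP1B and SEC24D (r = 0.995, 0.993 and 0.992), with 70 genes above 0.95. For PLAT they were CSF1, WDFY1 and GAS6 (r = 0.980, 0.977 and 0.969), with 18 above 0.95. Fewer genes followed the serpins. SERPINE2 was closest to GNAI1, IGFBP5 and ACACA (r = 0.972, 0.967 and 0.966, 8 above 0.95) and SERPINF1 to SDCBP, ATP5E and ZEB2 (r = 0.978, 0.967 and 0.954, 3 above 0.95).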

How the data were processed

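RNA of 3 TGF-β1 and 3 NC samples was sequenced by the authors on an Illumina HiSeqXten after rRNA removal. Reads were aligned to Sus scrofa 10.2 (aligner: not given in the sources used here), and the deposited FPKM values were calculated by the authors with StringTie 1.3.1 (version from the submitters' processing notes). The files hold no read counts, so the absolute depth of each sample and the strand of counting are not known. The lncRNA tables were not used.

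The test was run on genes that exceeded an FPKM of 0.1 in 3 or more of the 6 samples, using log2(FPKM + 0.1), a scale that understates changes of low genes, with limma 3.58.1 in R 4.3.3 (default parameters, Benjamini-Hochberg over 17708 genes, threshold 0.1 as in the paper, whose added condition on the fold change was not applied). The script was tested on simulated data. Single means were compared by exact permutation in scipy 1.17.1. Where a symbol repeated, the row with the highest mean was kept. In the lists, 11 genes were found under another name (RefSeq synonyms, LOC numbers or a hyphen). The members and lists were chosen with earlier results of these data known, so no list was tested as a set. The result of 1 gene is not reported here. Named were the 5 genes, in each list the 3 with the highest means and the 2 with the lowest p (and any that passed), serpins with a mean FPKM of at least 1, and the 3 genes most like each member. Alternatives were pseudocounts of 1 and 0.01, no filter, only genes that average an FPKM of 1 or more, 2 scalings, an adjusted p of 0.05, the replicate number as a block, and leaving out each sample. Figures were drawn with matplotlib 3.10.9.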

Additional observations from a re-analysis of the deposited data

How the results depend on the processing

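Of the 5 genes, 0 passed under any alternative, and the smallest adjusted p was 0.404 (limma, PLAU, when genes averaging below an FPKM of 1 were dropped). SERPINE2 stayed positive and PLAU negative throughout, from 0.20 to 0.35 and from -0.24 to -0.17 on the log2 scale without each sample in turn. In the same fits PLAUR ranged from -0.17 to 0.10, PLAT from -0.12 to 0.0041 and SERPINF1 from -0.11 to 0.16. With the samples scaled to the same total the sign turned for PLAUR (0.107), PLAT (0.0678), ANXA2 (0.0464), LRPAP1 (0.0094), CAV1 (0.0267), CST3 (0.118), PLXDC2 (0.0671), RPSA (0.0792), MMP14 (0.0295), SERPINB1 (0.0628) and SERPINH1 (0.0962), and with median-ratio scaling for PLAUR (0.0771), PLAT (0.0382), ANXA2 (0.0166), CST3 (0.0885), PLXDC2 (0.0374), RPSA (0.0493), SERPINB1 (0.0331) and SERPINH1 (0.0664). The number of genes passing in the whole table, 17, was 49 with a pseudocount of 0.01, 11 with no filter, 5 when genes averaging below an FPKM of 1 were dropped, 9 at an adjusted p of 0.05, and 15 to 41 without each sample in turn (41, 36 and 30 without TGF-β1 replicate 1, 2 or 3). The cause was not tested. With the replicate number as a block 3 genes passed, and the log2 fold changes of the 5 genes had adjusted p values of 0.424 to 0.929. Deviations of same-numbered samples correlated at 0.25, 0.0039 and 0.20, and those of differently numbered samples at -0.24 to 0.04. TGF-β1 replicate 2 correlated with no NC sample above 0.0281 (NC replicate 3). These values do not settle whether the numbers stand for pairs, and the main fit used no pairs. The precision is that of 3 samples a group, as the intervals give it, and the absolute depth of each sample is not known.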
